A study of Mus musculus with 13 samples.

Results

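The liver that remains after partial hepatectomy was compared with control liver, 72 h after surgery, across all genes of the deposited table. Members were chosen by their labels: the 3 libraries labelled as liver taken 72 h after partial hepatectomy and the 6 labelled as control liver, which make 9 of the 13 libraries in the series. All are whole livers of Mus musculus, and no liver of either group had been depleted of hepatic stellate cells, the vitamin A-storing pericytes of the sinusoids. Control livers 1, 2 and 6 were from males and controls 3, 4 and 5 from females. Hepatectomised livers 1 and 2 were from males and hepatectomised liver 3 from a female. The labels state no strain, age, genotype, extent of resection, sham operation or time of day, so the effects of surgery itself and of tissue removal cannot be told apart. The other 4 libraries, from stellate cell-depleted livers, shared the filter on low counts, the scaling, the sex term and the estimate of spread. With the 9 libraries alone, 13310 genes were tested and 953 differed, against 13831 and 1164 with all 13. Of 22048 genes in the table, 13831 had enough counts to be tested.

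After removal of part of the liver, the remnant grows back mainly through enlargement and division of cells that were quiescent, above all hepatocytes. Priming signals such as interleukin-6, acting through STAT3, and growth factors such as HGF and the ligands of EGFR are known to bring hepatocytes into the cell cycle, while the remnant goes on secreting plasma proteins and handling nutrients, bile acids and drugs. In mice, DNA synthesis and mitosis of hepatocytes come in the first days after surgery, and the non-parenchymal cells divide later.

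Totals ran from 35360991 to 46228433 counts in the 9 libraries. Alb, which encodes albumin, was the most counted gene of every library, at 3.74% to 12.1% of counts, and 6 of 20 listed genes of pancreas, gut, muscle, fat and skin were at 0 in all 9. Some livers stood apart in ways the groups do not explain. Control liver 6 and hepatectomised liver 2 were low in markers of Kupffer cells, the resident macrophages of the liver, and of sinusoidal endothelium. The 18 Kupffer cell markers took 0.0159 to 0.116% of counts in controls, with the lowest share in control 6, and 0.120, 0.0240 and 0.0543% in hepatectomised livers 1, 2 and 3. Control liver 4 was the highest of the controls in mitotic genes. Every comparison was repeated with each liver left out. The values are given where the call or change of a called named gene moved, while most list counts from 1 to 3 are given without them. P-values rest on the spread between livers, which are the only replicates, estimated over all 13 libraries and partly shared across genes.

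Some of the gene groups described below are known to be regulated through short sequences upstream of their start sites. The 6 promoters below are shown because each belongs to a gene that rose and holds a motif known from such a group: the cell cycle genes homology region (CHR) and CCAAT box for the mitotic genes Cdk1 and Ccnb2, an E2F site and CCAAT boxes for the replication gene Mcm5, a STAT site for the acute-phase genes Fgb and Steap4, and metal response elements (MRE) for metallothionein Mt2. They are RefSeq promoter sequences on GRCm38.p6, 5′ to 3′ on the strand of the gene, with the motif matches in capitals. Those of Ccnb2, Mcm5, Fgb and Mt2 end at the base before the start site. The last 26 bases before the start are left out for Cdk1 and the last 15 for Steap4. Cdk1 lies on the minus strand (chr10:69352939-69353162), Ccnb2 on the minus strand (chr9:70421555-70421804), Mcm5 on the plus strand (chr8:75109259-75109508), Fgb on the minus strand (chr3:83049864-83050113), Steap4 on the plus strand (chr5:7960222-7960456) and Mt2 on the plus strand (chr8:94172368-94172617).
Cdk1: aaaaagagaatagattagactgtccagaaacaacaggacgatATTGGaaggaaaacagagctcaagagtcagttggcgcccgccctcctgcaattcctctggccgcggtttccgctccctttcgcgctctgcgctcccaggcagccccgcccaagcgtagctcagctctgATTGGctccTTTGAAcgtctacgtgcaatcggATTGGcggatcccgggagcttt
Ccnb2: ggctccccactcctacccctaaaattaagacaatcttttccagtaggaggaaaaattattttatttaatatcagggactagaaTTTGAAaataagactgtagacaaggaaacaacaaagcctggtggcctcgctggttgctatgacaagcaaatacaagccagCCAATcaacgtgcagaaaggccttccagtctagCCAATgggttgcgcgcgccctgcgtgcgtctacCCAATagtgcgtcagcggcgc
Mcm5: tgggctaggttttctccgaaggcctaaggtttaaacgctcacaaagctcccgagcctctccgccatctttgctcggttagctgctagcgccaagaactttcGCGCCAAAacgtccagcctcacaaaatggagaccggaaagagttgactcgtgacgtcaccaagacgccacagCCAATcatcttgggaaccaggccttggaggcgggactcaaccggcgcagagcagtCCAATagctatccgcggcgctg
Fgb: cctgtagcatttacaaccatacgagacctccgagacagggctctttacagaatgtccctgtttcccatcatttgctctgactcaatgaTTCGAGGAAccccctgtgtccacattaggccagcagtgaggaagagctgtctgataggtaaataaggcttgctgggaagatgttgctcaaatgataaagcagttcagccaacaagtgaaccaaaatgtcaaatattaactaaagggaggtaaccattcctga
Steap4: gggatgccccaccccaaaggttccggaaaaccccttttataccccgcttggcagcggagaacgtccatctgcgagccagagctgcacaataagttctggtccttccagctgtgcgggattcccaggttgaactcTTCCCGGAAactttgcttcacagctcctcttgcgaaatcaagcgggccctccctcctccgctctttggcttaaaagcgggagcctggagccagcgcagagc
Mt2: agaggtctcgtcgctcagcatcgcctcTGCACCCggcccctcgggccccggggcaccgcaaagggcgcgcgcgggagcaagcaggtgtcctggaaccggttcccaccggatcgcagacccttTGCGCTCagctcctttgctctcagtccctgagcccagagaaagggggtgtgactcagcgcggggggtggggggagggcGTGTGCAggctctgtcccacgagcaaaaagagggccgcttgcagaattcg

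Motifs were searched on both strands of a window from 250 bases before to 50 bases after the start. The letters were TTTGAA for CHR, CCAAT for the CCAAT box, TTCNNNGAA for STAT, for MRE TGCGC or TGCAC followed by any base and C, and TTTCCCGC, TTTGGCGC or TTCCCGCC for E2F, of which TTTCCCGC and TTCCCGCC can overlap. Of the 13831 tested genes, 10826 had a promoter in the table. CHR was found in 14.9% of these, in 19 of 27 (70.4%) mitotic exit and cytokinesis genes and in 11 of 18 (61.1%) genes of G2 and mitotic entry. A CCAAT box was found in 42.7% of all and in 16 of the same 18 (88.9%). E2F sites were found in 6.55% of all, in 10 of 18 (55.6%) origin licensing genes, and in 0 of the 27 mitotic exit genes. STAT sites were found in 8.54% of all and in 8 of 25 (32.0%) acute-phase genes. Lists with at most 1 called member held them too, with 33.3% of dendritic cell, 30.0% of T cell, NK cell and ILC1 and 29.0% of interferon-induced genes, and the list of the IL-6 and STAT3 axis held them in 9.52%. MRE were found in 39.4% of all and in 9 of 14 (64.3%) metallothionein and zinc transporter genes, but also in 68.4% of hypoxia-induced and 66.7% of replication fork genes. The Mt2 window holds 3 MRE matches, at 223, 128 and 50 bases before the start, and 3.65% of all tested promoters hold at least 3. The endoplasmic reticulum stress element (ERSE) was found in 0.176% of all and in 9 of 22 (40.9%) genes of the endoplasmic reticulum chaperone list, none of which passed the test of expression below. These matches describe the letters of the windows and were not tested for function.

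Of the 13831 genes, 1164 (8.42%) differed between hepatectomised and control livers at an adjusted p under 0.05 in edgeR's quasi-likelihood test. Rises were the more common: 838 genes (6.06%) were higher after hepatectomy and 326 (2.36%) lower, and 740 of the 1164 (5.35% of those tested) differed at least 2-fold, 634 (4.58%) upward and 106 (0.766%) downward. Every hepatectomised liver was above every control in 1025 genes (7.41%) and below every control in 864 (6.25%). Over all genes tested the log2 fold change had a median of −0.02. Scaling by library size alone in place of the trimmed mean of M values (TMM) gave 626 higher and 1566 lower genes and a median of −0.24. The 20 most abundant genes took 28.6% to 33.6% of counts in hepatectomised livers and 23.7% to 27.6% in controls. With the replicate number as a block in the model (a term for what same-numbered livers share), 460 genes (3.33%) were higher and 172 (1.24%) lower. Without hepatectomised liver 2 the test called 483 genes in all, without control 1 it called 692 and without control 2 it called 742.

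Below, a gene said to have risen or fallen passed this test at an adjusted p under 0.05. Unless a limit is stated, its call also held with the block and with each of the 9 livers left out in turn, and its log2 fold change stayed within 1.5 times of the value given with each liver left out. Levels are CPM, read counts scaled to library size and by TMM, for hepatectomised livers 1, 2 and 3 in that order and as the range and median of the 6 controls. Changes are log2 fold changes ± SE, hepatectomised against control. In the smallest library 3 counts equal 0.0848 CPM before TMM scaling and slightly more after it. The changes of genes with controls near that level, such as Timp1, Lrrn4, Upk1b, Mmp8 and Rspo1, rest on few control counts. A list's count is followed, where it moved by more than 1.5 times, by its count with the block or without the liver named. With libraries scaled by size alone, list counts shifted downward. The upward count was 6 in place of 10 for cytoskeletal genes, 4 in place of 7 for the IL-6 and STAT3 axis, for NF-kappaB signalling and for constitutive plasma proteins, 3 in place of 5 for lipoprotein genes, 2 in place of 5 for metallothioneins and zinc transporters, 1 in place of 4 for matrix genes, 0 in place of 5 for translation genes and 0 in place of 3 for secretory pathway genes. The downward count was 16 in place of 1 for urea cycle and amino acid catabolism genes, 8 in place of 0 for nuclear oxidative phosphorylation genes, 7 in place of 3 for glycolysis, 7 in place of 2 for gluconeogenesis, 7 in place of 4 for cell death, 6 in place of 1 for periportal genes, 5 in place of 0 for clock and for autophagy genes, 5 in place of 2 for the TGF-beta family and 5 in place of 1 for Hippo pathway genes. Of the 59 list counts from 1 to 3, 41 reached 0 with the block or with at least 1 liver left out, and most of these small counts are given without their alternatives. Counts of a gene list are read against the 6.06% of all genes that were higher and the 2.36% that were lower.

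**Figure D1:**
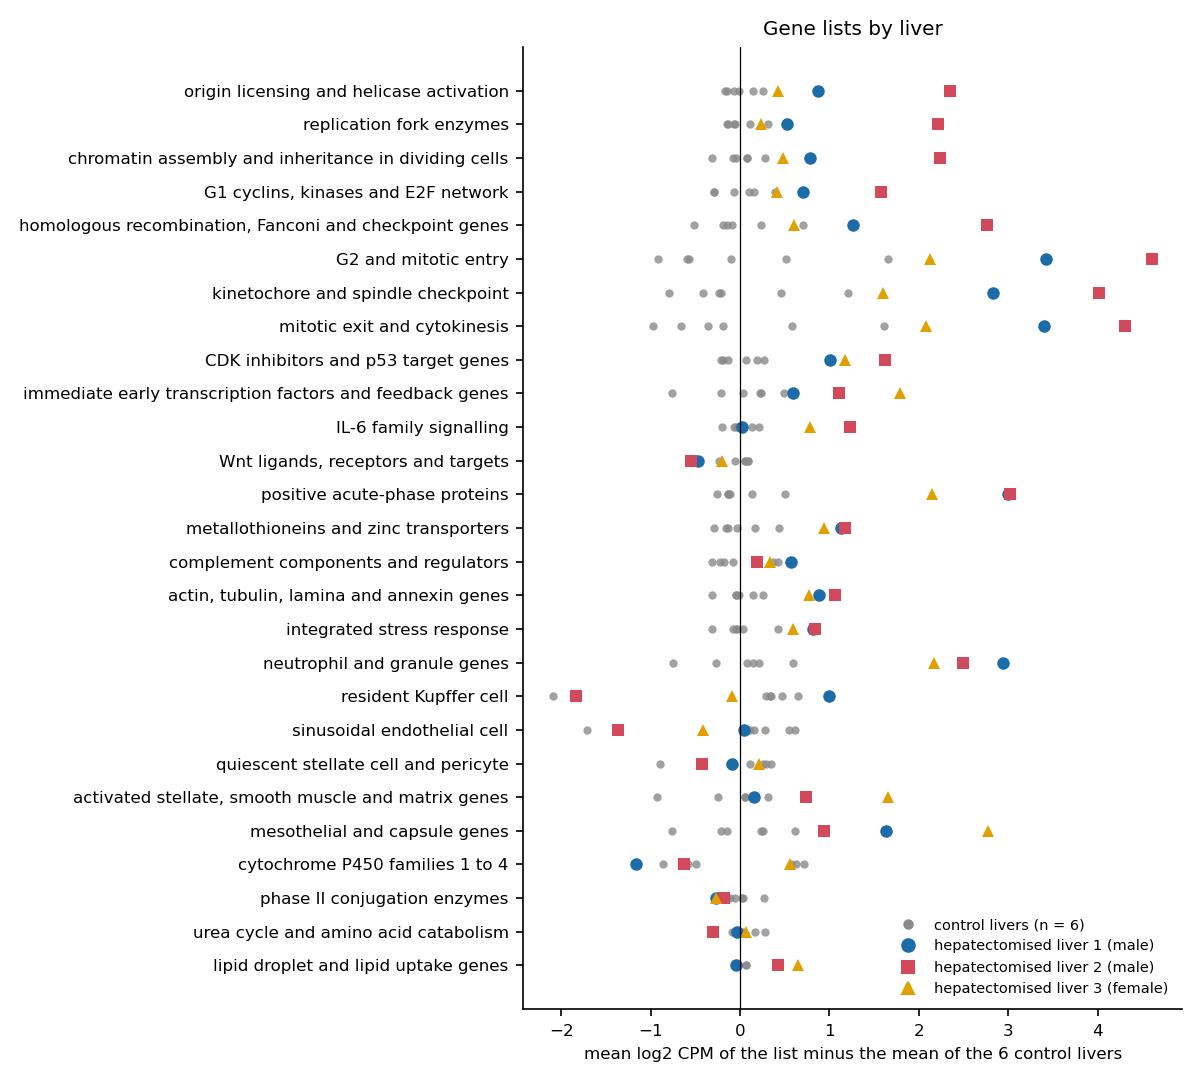
Mean log2 CPM of 27 gene lists in each liver, as the difference from the control mean (x axis, log2 units): grey points are the 6 controls, the blue circle, red square and yellow triangle are hepatectomised livers 1, 2 and 3. Mitotic and acute-phase lists lie to the right of every control in all 3 hepatectomised livers, while Kupffer cell and sinusoidal endothelial lists spread over both sides.

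The remnant expressed the genes of cell division, and those of mitosis moved most. Of the genes of G2 and mitotic entry, 22 of 25 rose (88.0%) with a list median of 3.90. Of kinetochore and spindle checkpoint genes, 25 of 29 rose (median 3.02), and of mitotic exit and cytokinesis genes 27 of 30 rose (median 3.63); none of the 3 lists had a member that fell. Cdk1, the kinase that drives cells into mitosis, was at 41.2, 75.5 and 10.6 CPM after hepatectomy and at 0.749 to 5.48 CPM (median 1.32) in controls. Each hepatectomised liver was above each control. Its log2 fold change was 4.30 ± 0.77 (adjusted p = 0.00671).

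Its partner cyclin Ccnb2 stood at 22.8, 40.3 and 8.73 CPM against 0.211 to 3.69 CPM (median 0.735) in controls, again without overlap, and rose by 4.22 ± 0.80 (adjusted p = 0.00924). Aurka, the kinase that matures the spindle poles, rose by 4.93 ± 1.05 and Plk1, a kinase of mitotic entry and exit, by 4.74 ± 0.91. Ube2c, the ubiquitin-conjugating enzyme that serves the anaphase-promoting complex, stood at 29.6, 45.6 and 5.54 CPM against 0.240 to 3.82 CPM (median 0.549) and rose by 4.86 ± 1.03. The chromosomal passenger genes Birc5 (survivin) and Aurkb rose by 4.57 ± 0.69 and 4.51 ± 0.78. Ccnb1 rose by 5.02 ± 1.18, but its call was lost without control 1 or 2 or hepatectomised liver 2 (adjusted p 0.064 to 0.0756). Among kinetochore genes, the checkpoint kinase Ttk changed by 4.90 ± 1.18 and Nuf2, a subunit of the microtubule-binding NDC80 complex, by 4.63 ± 1.08, and both lost their calls without hepatectomised liver 2 (adjusted p = 0.0837 and 0.0798), control 1 (0.0715 and 0.0645) or control 2 (0.0708 and 0.0586).

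Upstream of mitosis, the genes of DNA replication rose in fewer cases and were highest in hepatectomised liver 2. Of 23 origin licensing and helicase genes, 10 rose and 2 fell (median 1.47). Of replication fork genes, 8 of 25 passed the test upward (median 0.92), of the genes that copy chromatin with the DNA 7 of 21 (median 0.89), of recombination and checkpoint genes 12 of 28 (median 1.70) and of deoxynucleotide, purine and pyrimidine synthesis genes 3 of 26 (median 0.22). The upward counts moved with single livers. Licensing genes gave 3 with the block, 4 without control 1, 2 or 6 and 3 without hepatectomised liver 2. Fork genes gave 1 with the block, 5 without control 3 or 5, 3 without control 1, 2 or 6 and 0 without hepatectomised liver 2. Chromatin genes gave 12 without hepatectomised liver 3, 3 without control 1 and 1 without hepatectomised liver 2, recombination genes 4 with the block, 7 without control 2 or 6, 6 without control 1 and 3 without hepatectomised liver 2, and nucleotide synthesis genes 7 without hepatectomised liver 3 and 1 without control 1 or 2 or hepatectomised liver 2.

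Mcm5, a subunit of the replicative helicase, shows the pattern: it was at 10.8, 80.3 and 7.48 CPM after hepatectomy and at 1.56 to 4.50 CPM (median 2.77) in controls. All 3 hepatectomised livers lay above all 6 controls, and liver 2 lay far above the other two. Its change was 3.42 ± 0.69 (adjusted p = 0.0123), and the call was lost with the block (adjusted p = 0.066). Gins2, a subunit of the GINS helicase activator, stood at 6.08, 16.0 and 1.87 CPM against 0.480 to 1.35 CPM (median 0.662) and rose by 3.20 ± 0.59 (adjusted p = 0.00739). Rrm2, the regulated subunit of ribonucleotide reductase, rose by 3.94 ± 0.60 from a control range of 1.75 to 4.57 CPM (median 3.34) to 13.7, 143 and 16.9 CPM.

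Chaf1a, which deposits histones behind the fork, rose by 2.98 ± 0.58, and the recombination factor Rad54l by 3.98 ± 0.80. Dbf4, the activating subunit of the kinase that fires origins, rose by 1.99 ± 0.37, and Chek1, the kinase of the replication checkpoint, by 3.22 ± 0.63. Without hepatectomised liver 2 the log2 fold changes were smaller, at 1.73 for Mcm5, 2.29 for Rrm2, 1.71 for Chaf1a, 2.51 for Rad54l and 2.11 for Chek1. Orc3, a subunit of the origin recognition complex, changed by -0.52 ± 0.11, with the call lost with the block (adjusted p = 0.0922). Top2a, which untangles replicated DNA, changed by 4.2 ± 0.91, with the call lost without hepatectomised liver 2 (adjusted p = 0.067).

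The 3 remnants differed in the level of these programmes. The mean log2 CPM of the licensing list, relative to the control mean, was 0.87, 2.35 and 0.42 in hepatectomised livers 1, 2 and 3, with controls from -0.17 to 0.26. The same measure for G2 and mitotic entry was 3.42, 4.61 and 2.13, with controls from -0.92 to 1.66 and control 4 the highest. Hepatectomised liver 2 was the highest of the 3 in 25 of 25 G2 and mitotic entry genes, 25 of 25 fork genes and 20 of 23 licensing genes, against 4945 of all 13831 tested. Hepatectomised liver 3, the only female of the group, was the lowest in 25 of the 25 G2 and mitotic entry genes. With 1 female remnant, sex and liver cannot be told apart here. The upward count of G2 and mitotic entry genes was 14 without control 2, 11 without control 1 and 7 without hepatectomised liver 2, that of kinetochore genes 16 without control 2, 10 without control 1 and 5 without hepatectomised liver 2, and that of mitotic exit genes 16 without control 1 and 13 without hepatectomised liver 2. With the block the counts were 21, 18 and 26.

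**Figure D2:**
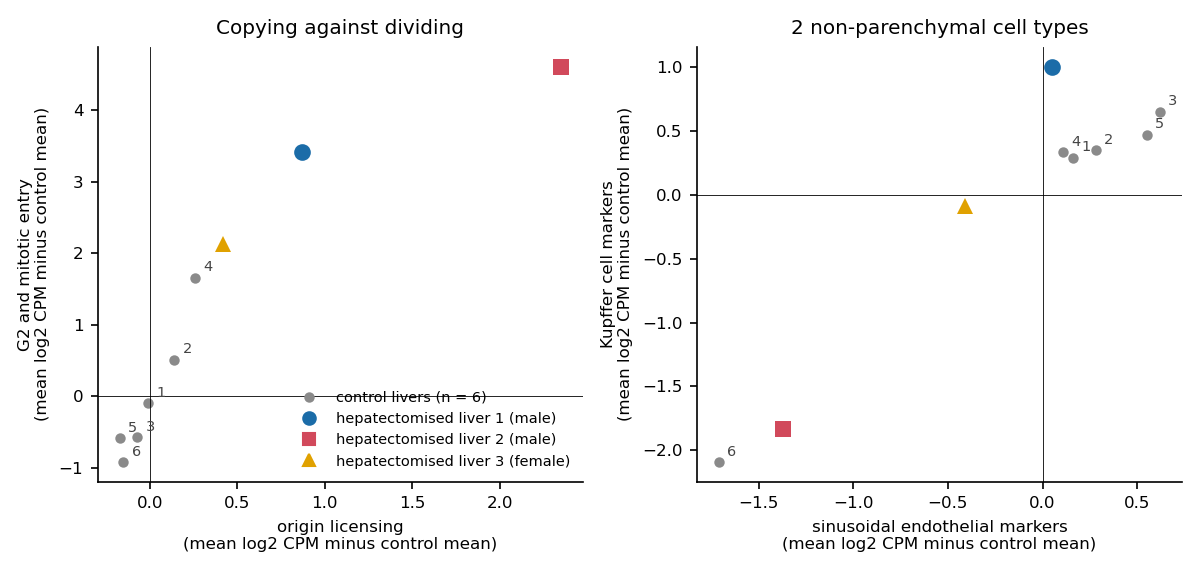
Each liver on pairs of list scores (mean log2 CPM minus the control mean): left, origin licensing (x) against G2 and mitotic entry (y); right, sinusoidal endothelium (x) against Kupffer cells (y); grey numbers are controls, coloured marks hepatectomised livers 1 to 3. On the left, hepatectomised liver 2 lies at 2.35 and 4.61 and liver 3 at 0.42 and 2.13; on the right, control 6 and hepatectomised liver 2 lie together at the low end.

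The G1 cyclins and the E2F network moved less than the mitotic genes. Of 26 such genes, 6 rose and 1 fell (median 0.66), with upward counts of 2 with the block, 3 without control 2, 3 or 5, 2 without control 1 and 1 without hepatectomised liver 2. Mybl1, a MYB family activator of cell cycle promoters, rose by 3.67 ± 0.70 (adjusted p = 0.00848). Foxm1, the factor that drives mitotic gene transcription, changed by 3.97 ± 0.87 (adjusted p = 0.0163), a call lost without control 1 or hepatectomised liver 2 (adjusted p 0.0503 to 0.0658). Ccnd1, the cyclin D1 that carries growth signals into G1, was at 73.2, 84.9 and 282 CPM against 6.51 to 151 CPM (median 66.9) and did not pass the test (1.19 ± 0.54, adjusted p = 0.202); only hepatectomised liver 3 was above all controls. Rbl2, which encodes the pocket protein p130 of quiescent cells, changed by -0.58 ± 0.13, and its call was lost without hepatectomised liver 2 or 3 (adjusted p 0.0644 to 0.0661).

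Inhibitors of the cycle rose beside the genes of division. Of 29 CDK inhibitors and p53 target genes, 13 rose and none fell (median 0.61), with upward counts of 8 with the block, 8 without control 1 or 2 and 6 without hepatectomised liver 2. Cdkn1a, the CDK inhibitor p21, was at 56.1, 83.2 and 85.5 CPM after hepatectomy and at 0.330 to 2.14 CPM (median 0.834) in controls. The groups lay far apart and the 3 remnants close together, with a change of 6.17 ± 0.57 (adjusted p = 0.00013). As CPM per kilobase of transcript, Cdkn1a had a mean level of 0.448 and 33.7 in controls and hepatectomised livers, and Cdk1 of 0.598 and 12.3.

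The stress-induced growth arrest genes Gadd45g and Gadd45b rose by 5.18 ± 0.75 and 3.76 ± 0.42. Gadd45g stood at 44.2, 132 and 119 CPM against 0.810 to 10.1 CPM (median 1.36), with the remnants all above the controls. The antiproliferative p53 target Btg2 rose by 3.10 ± 0.49, and Eda2r, a p53-induced receptor of the TNF receptor family, by 3.29 ± 0.57. Trp53, the gene for p53, was at 14.0, 22.8 and 19.7 CPM against 17.9 to 21.2 CPM (median 19.1) (log2 difference -0.02 ± 0.20, adjusted p = 0.966), and the paralogous inhibitor Cdkn1b (p27) at 31.8, 31.0 and 25.7 CPM against 22.3 to 34.5 CPM (median 24.6) (log2 difference 0.15 ± 0.13, adjusted p = 0.503). Unlike Cdkn1a, both overlapped the controls.

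Growth factor genes were mostly not separable from control at 72 h. Of 29 hepatocyte mitogens and receptors, none passed the test upward and 1 downward (median -0.14; 5 at an unadjusted p under 0.05, 2 by DESeq2 and 2 by limma-voom). Hgf was at 17.1, 10.9 and 13.6 CPM against 3.87 to 20.5 CPM (median 17.4) (log2 difference 0.05 ± 0.42, adjusted p = 0.963). Its receptor Met had a log2 difference of -0.01 ± 0.21 and Egfr one of 0.56 ± 0.38 (adjusted p = 0.986 and 0.394), and Vegfa, the endothelial growth factor, one of -0.65 ± 0.23 (adjusted p = 0.109). Fgfr2 alone passed, at -0.84 ± 0.24, a call lost without control 1, 2, 3 or 5 or hepatectomised liver 1, 2 or 3 (adjusted p 0.0762 to 0.192). Of 7 neurotrophins and receptors 1 rose and 1 fell. The ligand Ntf3, neurotrophin-3, rose by 2.80 ± 0.55 (adjusted p = 0.00989) from 0.240 to 0.661 CPM (median 0.443) in controls to 2.41, 2.58 and 3.94 CPM. The values are low, and each remnant lay above each control. The sorting receptor Sort1 changed by -0.89 ± 0.21, a call lost without control 1 or 2 or hepatectomised liver 1 or 2 (adjusted p 0.0512 to 0.0903).

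Immediate early genes, transcription factors switched on within minutes of a stimulus, were raised in part. Of 29, 11 rose and none fell (median 1.12), with upward counts of 5 with the block and 5 without hepatectomised liver 3. That liver was the highest of the 3 in 20 of the 29. Fos, a subunit of the AP-1 factor, stood at 4.14, 2.98 and 9.10 CPM against 0.150 to 1.19 CPM (median 0.676) and rose by 3.05 ± 0.46. Its partners Junb and Fosl2 rose by 2.23 ± 0.31 and 2.05 ± 0.22, and Ier5 by 1.48 ± 0.24. Egr1 changed by 2.86 ± 0.54, a call lost with the block (adjusted p = 0.0775) and without hepatectomised liver 3 (adjusted p = 0.0617). Myc was at 3.88, 13.5 and 6.31 CPM against 1.65 to 8.87 CPM (median 2.58) and did not pass (log2 difference 1.10 ± 0.47, adjusted p = 0.171).

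Several negative regulators and receptors of the Wnt pathway were lower. Wnt signals from the central vein set the zonation of hepatocytes, and Rnf43 and Axin2 are feedback inhibitors that the pathway itself induces. Of 29 genes of the pathway, 6 fell and 1 rose (median -0.30), with 3 without hepatectomised liver 3 downward. Rnf43 was at 11.4, 8.48 and 11.5 CPM against 33.1 to 49.0 CPM (median 35.7) and fell by 1.84 (adjusted p = 0.00123). The receptor Fzd8, at 3.03, 3.45 and 4.31 CPM against 11.3 to 19.6 CPM (median 18.3), had a log2 difference of -2.20 ± 0.26 (adjusted p = 0.000532), and Axin2 one of -1.33 ± 0.22 (adjusted p = 0.00421). In all 3 genes each remnant lay below each control. Rspo1, a ligand that amplifies Wnt signals, changed by 3.22 ± 0.68, a call lost with the block (adjusted p = 0.12) and without hepatectomised liver 3 (adjusted p = 0.166), where the change was 2.08.

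Of 34 genes of the TGF-beta, activin and BMP family, 1 rose and 2 fell, near the share of all genes. Fst, the activin antagonist follistatin, changed by 2.12 ± 0.46 (adjusted p = 0.0157), a call lost without hepatectomised liver 2 (adjusted p = 0.0781). Tgfb1, which restrains hepatocyte growth, had a log2 difference of -0.09 ± 0.39 (adjusted p = 0.921). None of 14 Notch pathway genes passed the test (1 at an unadjusted p under 0.05, 0 by DESeq2 and 0 by limma-voom), and of 26 Hippo pathway and YAP target genes 1 passed upward and 1 downward.

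Some genes downstream of IL-6 and STAT3 were among the rises. Socs3, the STAT3 target that feeds back on the receptor, was at 36.4, 199 and 121 CPM after hepatectomy and at 3.14 to 9.64 CPM (median 5.20) in controls. Liver 1 was the lowest of the remnants and still above every control, and the change was 4.29 ± 0.45 (adjusted p = 0.000344). Stat3 itself rose by 1.17 ± 0.18 and the kinase Pim3 by 2.03 ± 0.29, while Pias3, an inhibitor of STAT3, fell by 1.05. Il6 had 7 counts over the 6 controls and 8 over the 3 remnants, too few to test. In all, 7 of 21 genes of the axis rose and 1 fell (median 0.71), with upward counts of 3 with the block, 4 without control 1, 4 or 5 or hepatectomised liver 3 and 3 without control 2, 3 or 6 or hepatectomised liver 2. A negative change was seen in 9 of the 21. Relative to the control mean, the list's mean log2 CPM was 0.02, 1.23 and 0.78 (controls -0.20 to 0.21). Hepatectomised liver 1 thus lay among the controls.

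Of 29 genes of TNF, IL-1 and NF-kappaB signalling, 7 rose and 1 fell (median 0.45), with upward counts of 2 with the block and 4 without hepatectomised liver 2 or 3. The feedback inhibitor Tnfaip3 (A20) rose by 1.36 ± 0.20 and the atypical inhibitor Nfkbiz by 1.31 ± 0.22. Tnfsf10, the death ligand TRAIL, changed by -2.11 ± 0.47, a call lost without hepatectomised liver 2 or 3 (adjusted p 0.0825 to 0.0831).

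The C/EBP factors moved in opposite directions. Cebpb, the isoform linked to the acute-phase response and growth, was at 59.4, 131 and 103 CPM against 11.8 to 30.3 CPM (median 21.2) in controls, and Cebpa, the isoform of quiescent hepatocytes, at 106, 129 and 144 CPM against 273 to 466 CPM (median 364). Neither gene's groups overlapped. Cebpb rose by 2.18 ± 0.24 (adjusted p = 0.000407) and Cebpa changed by -1.50 ± 0.23 (adjusted p = 0.00301). Hnf4a, the central factor of hepatocyte identity, had a log2 difference of 0.42 ± 0.21 and did not pass (adjusted p = 0.245). Over 36 hepatocyte transcription factors 5 rose and 1 fell (median -0.22), with upward counts of 3 with the block and 3 without hepatectomised liver 3 and a downward count of 4 without control 4. When libraries were scaled by size alone, 4 were higher and 9 lower.

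**Figure D3:**
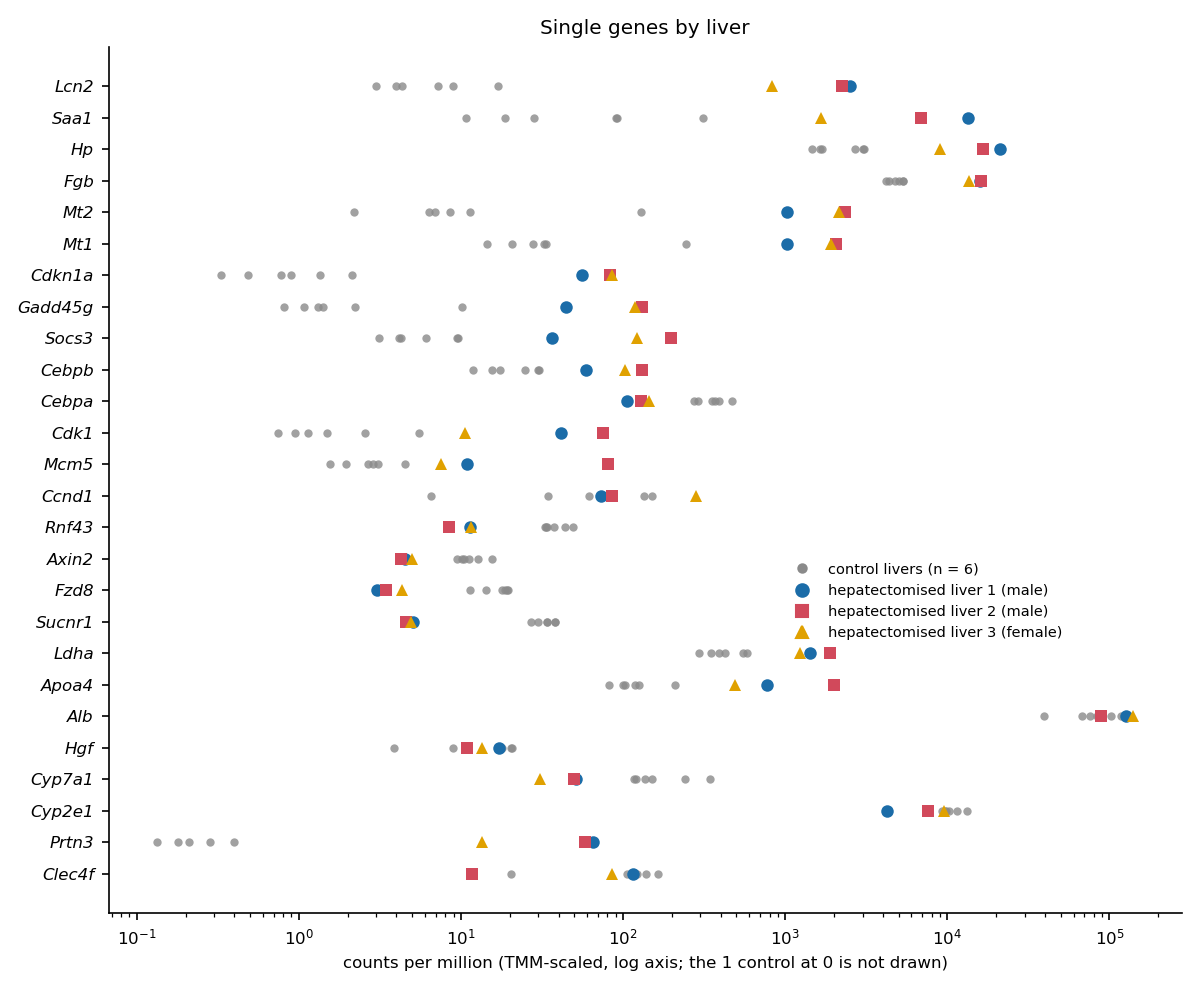
CPM on a log axis of 26 named genes in each liver: grey points are the 6 controls, coloured marks hepatectomised livers 1, 2 and 3, and 1 control of Prtn3, which had 0 counts, is not drawn. Cdkn1a, Lcn2, Socs3 and Sucnr1 show no overlap between groups, and Ccnd1, Hgf and Clec4f overlap.

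Genes of acute-phase plasma proteins rose together. These are proteins that hepatocytes secrete in large amounts upon injury or inflammation. Of 34 positive acute-phase genes, 28 rose (82.4%), none fell, the median was 2.24, and 29 had every remnant above every control, as had 7.41% of all genes. Their summed share of all counts was 2.68 to 4.57% in controls and 14.7, 12.8 and 8.24% in hepatectomised livers 1, 2 and 3. Lcn2, the siderophore-binding lipocalin 2, was at 2508, 2227 and 827 CPM after hepatectomy and at 3.0 to 16.9 CPM (median 5.79) in controls. Its change of 7.73 ± 0.56 (adjusted p = 2.69e-05) was the largest among genes that met the rule for the strongest changes, and the lowest remnant was far above the highest control.

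Saa1 and Saa2, near-identical genes of serum amyloid A whose reads may be shared between copies, rose by 6.18 ± 0.70 and 7.2 ± 0.93. Saa1 went from a mean share of 0.00910% ± 0.0113 to 0.634% ± 0.505 of counts (SD, n = 6 and 3). The haem-binding hemopexin gene Hpx went from 0.344% ± 0.0964 to 1.65% ± 0.680 and the haemoglobin-binding haptoglobin gene Hp from 0.226% ± 0.0675 to 1.35% ± 0.522. Hp stood at 21116, 16581 and 9062 CPM against 1472 to 3039 CPM (median 2186), with a change of 2.64 ± 0.14 (adjusted p = 2.24e-06). 

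The 3 fibrinogen chains rose together: Fga by 1.79 ± 0.13, Fgb by 1.63 ± 0.14 and Fgg by 1.69 ± 0.14. A2m, the protease inhibitor alpha-2-macroglobulin, was the most uneven, at 81.0, 62.5 and 2.29 CPM against 0.0600 to 0.268 CPM (median 0.174), so that the female remnant was the lowest of the 3 (log2 difference 7.63 ± 0.99, adjusted p = 0.00142). The protease inhibitor gene Serpina3n rose by 2.76 ± 0.23 and the metalloreductase gene Steap4 by 3.52 ± 0.51. Crp, the C-reactive protein, which is a minor acute-phase protein in mice, had a log2 difference of 0.39 ± 0.14 and did not pass (adjusted p = 0.101).

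**Figure D4:**
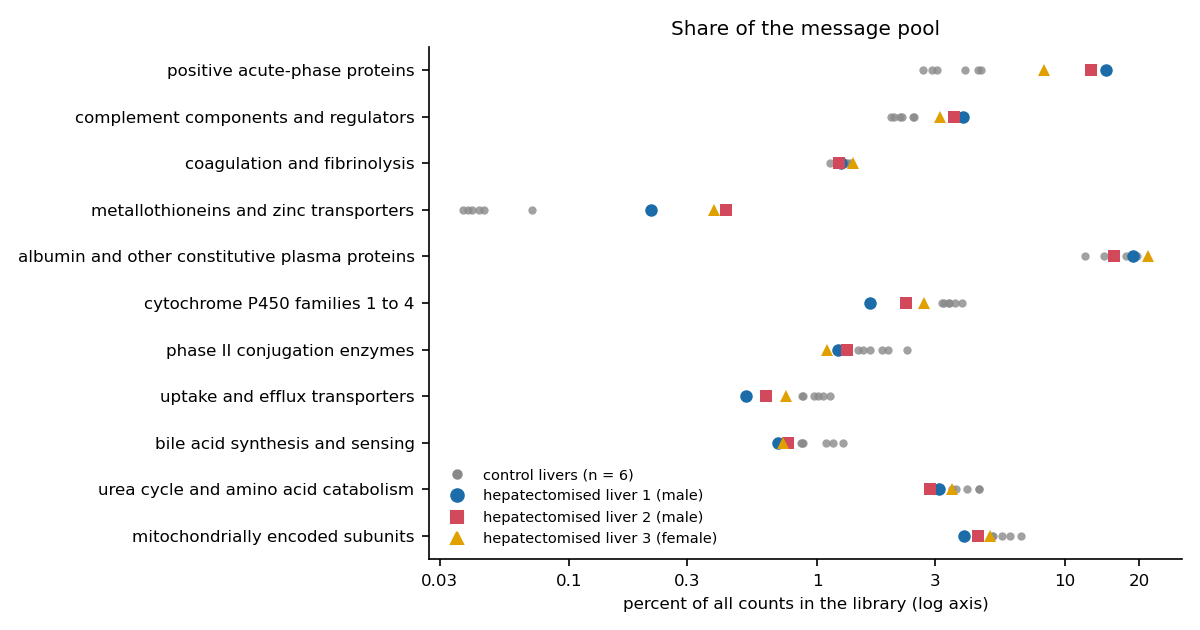
Percent of all counts (log x axis) taken by 11 gene lists in each liver; grey points are the 6 controls and coloured marks hepatectomised livers 1, 2 and 3. The acute-phase list lies at 2.68% to 4.57% in controls and 8.24% to 14.7% after hepatectomy, and the P450 list at 3.18% to 3.85% and 1.63% to 2.7%.

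Other secreted proteins moved less. Of 29 albumin and constitutive plasma protein genes, 7 rose and none fell (median 0.33), with upward counts of 2 with the block, 4 without control 1, 3 without hepatectomised liver 2 and 2 without hepatectomised liver 3. Ambp, the precursor of alpha-1-microglobulin and bikunin, rose by 1.07 ± 0.17. Alb did not pass (log2 difference 0.69 ± 0.29, adjusted p = 0.171), and neither did Afp, the fetal alpha-fetoprotein (log2 difference 0.84 ± 0.52, adjusted p = 0.35). Of 30 complement genes, 8 rose (median 0.10; 3 with the block and 5 without hepatectomised liver 2 or 3), among them the regulators C4bp and Cfi, which rose by 1.33 ± 0.16 and 0.85 ± 0.13, and Vtn (vitronectin), by 0.87 ± 0.15. C3, the central component, changed by 1.14 ± 0.26, a call lost with the block (adjusted p = 0.137) and without control 1 or hepatectomised liver 1 or 2 (adjusted p 0.0557 to 0.067). Of 30 coagulation and fibrinolysis genes, 6 rose (median 0.16). Thbd (thrombomodulin) rose by 2.13 ± 0.38, F13a1 by 2.36 ± 0.44, the inhibitor gene Serpina10 by 1.56 ± 0.25, the fibrinolysis inhibitor gene Cpb2 by 1.07 ± 0.15 and the anticoagulant gene Pros1 by 1.02 ± 0.17.

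Metal-binding and haem-handling genes showed a few large rises. Mt2, one of the zinc-binding metallothioneins, was at 1029, 2335 and 2133 CPM against 2.20 to 129 CPM (median 7.74), with control 3 the highest of the controls, and rose by 6.66 ± 1.14 (adjusted p = 0.00547). Mt1 rose by 5.20 ± 0.79. In all 5 of 15 genes of the list rose (median 0.23; 3 with the block, 3 without control 1 or hepatectomised liver 1 and 2 without hepatectomised liver 2), and its share of counts went from 0.0374 to 0.0706% in controls to 0.213, 0.431 and 0.384%. Mt1 and Mt2 carried that difference: they took 0.00168 to 0.0369% of counts in controls and 0.176, 0.387 and 0.352% in the remnants, and the other members 0.0337 to 0.0405% of counts in controls and 0.0376, 0.0443 and 0.0324% in the remnants. Of 31 iron and haem genes, 2 rose: the zinc and iron importer gene Slc39a14 by 1.38 ± 0.23 and Hmox1 (haem oxygenase 1) by 1.56 ± 0.25. Hamp, the iron hormone hepcidin, was at 230.2, 427 and 1146 CPM against 756 to 1076 CPM (median 856) and did not pass (log2 difference -0.58 ± 0.51, adjusted p = 0.523; -1.65 to -0.15 with 1 liver left out).

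Among blood cell genes, those of neutrophils were higher. Of 17 neutrophil genes tested, 10 rose and none fell (median 3.72), 7 with the block. The list took 0.000130 to 0.000906% of counts in controls and 0.00902, 0.00830 and 0.00317% in the remnants, and 4 of its 20 genes, Ly6g, Stfa1, Stfa2 and Stfa3, were at 0 in all controls, with Stfa1 also at 0 in all remnants. The calprotectin subunits S100a8 and S100a9 rose by 4.51 ± 0.41 and 4.51 ± 0.44, the granule collagenase Mmp8 by 4.60 ± 0.77 and the chemokine receptor Cxcr2 by 4.03 ± 0.64. Ly6g, the surface marker of mouse neutrophils, had 0 counts in controls and 12 in the remnants. In bulk liver more cells of a type and more RNA per cell cannot be told apart.

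Prtn3, named for the granule protease proteinase 3, had 48 counts over the 6 controls and 4819 over the 3 remnants, at 65.3, 57.8 and 13.4 CPM against 0 to 0.395 CPM (median 0.195), with a change of 7.55 ± 0.81 (adjusted p = 0.000407). It made up much of the list's share, and the other members together took 0.000110 to 0.000867% of counts in controls and 0.00341, 0.00320 and 0.00201% in the remnants, still without overlap. Mpo, Ctsg and Elane, granule genes of the same precursor stage, had 6, 3 and 17 counts in controls and 9, 6 and 27 in the remnants. Those 3 genes were chosen after their values were seen.

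Most of the other immune lists had few calls, and several of their counts moved with the livers left out. None of 18 Kupffer cell genes, 26 T cell, NK cell and ILC1 genes, 16 dendritic cell genes or 24 genes of MHC presentation passed the test. For Kupffer cell genes the counts were 1 at an unadjusted p under 0.05, 1 by DESeq2 and 0 by limma-voom, for T cell, NK cell and ILC1 genes 1 at an unadjusted p under 0.05, 1 by DESeq2 and 0 by limma-voom, for dendritic cell genes 1 at an unadjusted p under 0.05, 1 by DESeq2 and 0 by limma-voom, and for MHC genes 7 at an unadjusted p under 0.05, 5 by DESeq2 and 0 by limma-voom. Clec4f, which in mice is particular to Kupffer cells, was at 114, 11.6 and 85.7 CPM against 20.3 to 165 CPM (median 119), with hepatectomised liver 2 and control 6 both far below the rest of their groups (log2 difference -0.41 ± 1.20, adjusted p = 0.877; 0.04 without hepatectomised liver 2, -0.66 without control 6 and -1.69 to 0.04 over all livers left out). Of 23 monocyte and recruited macrophage genes, 5 rose (2 with the block, 3 without control 1 or 5 and 2 without hepatectomised liver 2 or 3). Chil3, a chitinase-like protein of myeloid cells, rose by 3.28 ± 0.57. Of 14 B cell and plasma cell genes, 2 fell (median -0.84; 1 with the block, 4 without hepatectomised liver 3 and 1 without control 1, 2, 3, 5 or 6 or hepatectomised liver 1 or 2). The B cell factor Pax5 fell by 2.49. The list's summed share of counts was mostly 1 gene, Sdc1, a syndecan that hepatocytes also express, which took 0.0125 to 0.0244% of counts in controls and 0.0314, 0.0301 and 0.0194% in the remnants. The other members took 0.000758 to 0.00167% of counts in controls and 0.000588, 0.000220 and 0.000807% in the remnants, with hepatectomised livers 1 and 2 below all controls and liver 3 among them. Of 40 interferon-induced genes 1 rose and none fell, while 30 had a negative difference (median -0.28; 10 at an unadjusted p under 0.05). DESeq2 called 3 of them lower and scaling by library size alone 5. Of 15 erythroid and megakaryocyte genes none passed (1 at an unadjusted p under 0.05, 1 by DESeq2 and 0 by limma-voom). Of 25 chemokine genes 4 rose (2 with the block, 2 without control 2 or 3 or hepatectomised liver 3 and 1 without control 1, 5 or 6 or hepatectomised liver 2). By mean log2 CPM relative to the control mean, the chemokine list stood at 0.62, 0.64 and 0.55, above every control (-0.44 to 0.21), while 11 of the 25 had a negative change. Cxcl1, which attracts neutrophils through Cxcr2, stood at 69.6, 259 and 314 CPM against 1.6 to 8.85 CPM (median 6.13) and rose by 5.31 ± 0.54 (adjusted p = 0.000277).

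Of 25 sinusoidal endothelial markers none passed (median -0.60; 5 at an unadjusted p under 0.05, 0 by DESeq2 and 0 by limma-voom), while 2 fell with the block and 3 without control 6. Its genes took 0.0256 to 0.128% of counts in controls, lowest in control 6, and 0.0698, 0.0267 and 0.0536% in the remnants, and none of its genes was at 0 in either group. Of 28 genes of continuous endothelium and angiogenic factors 2 rose. Stab2, a scavenger receptor of these cells, had a log2 difference of -0.86 ± 0.40 (adjusted p = 0.214; -1.14 to -0.61 with 1 liver left out). None of 25 quiescent stellate cell and pericyte genes passed either (median -0.24; 1 at an unadjusted p under 0.05, 1 by DESeq2 and 0 by limma-voom), and Lrat, which stores vitamin A as esters, had a log2 difference of -0.96 ± 0.80 (adjusted p = 0.497; -1.51 to -0.37 with 1 liver left out). The part that the low non-parenchymal markers of control 6 and hepatectomised liver 2 play in these comparisons was not tested beyond leaving out each liver.

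Matrix genes were highest in hepatectomised liver 3. Of 39 activated stellate, smooth muscle and matrix genes, 4 rose and none fell (median 0.84; 1 with the block, 2 without control 3 or 4 or hepatectomised liver 2 and 1 without control 1, 5 or 6 or hepatectomised liver 3), and hepatectomised liver 3 was the highest remnant in 32 of them. Timp1, the inhibitor of matrix metalloproteinases, was at 3.62, 7.19 and 17.0 CPM against 0 to 0.667 CPM (median 0.0887) and rose by 5.49 ± 1.01. The collagen gene Col1a1 was at 9.88, 52.8 and 106 CPM against 4.98 to 32.3 CPM (median 6.48) and did not pass (log2 difference 2.12 ± 1.43, adjusted p = 0.394), nor did the smooth muscle actin Acta2 (log2 difference 1.56 ± 0.96, adjusted p = 0.348).

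Genes of the mesothelium, the cell layer that covers the liver capsule, were the other cell type list with a high count: 8 of 12 rose and 1 fell (median 1.98), with upward counts of 2 with the block and 5 without hepatectomised liver 3. The list took 0.00215 to 0.00405% of counts in controls and 0.00295, 0.00193 and 0.00748% in the remnants. The member that fell, Gas1, a growth arrest-specific membrane protein, was at 4.97, 2.58 and 8.43 CPM against 13.2 to 27.5 CPM (median 15.7) and changed by -1.68 ± 0.44, a call lost with the block (adjusted p = 0.0738) and without control 1, 2, 3, 5 or 6 or hepatectomised liver 1, 2 or 3 (adjusted p 0.0514 to 0.154). It was a large part of the sum, and the other members took 0.000744 to 0.00211% of counts in controls and 0.00252, 0.00170 and 0.00675% in the remnants, with hepatectomised livers 1 and 3 above all controls and liver 2 among them. By mean log2 CPM relative to the control mean, where each member weighs alike, the remnants stood at 1.63, 0.94 and 2.77 and controls from -0.76 to 0.62. Lrrn4 and Upk1b rose by 4.41 ± 0.81 and 4.21 ± 0.58, with Upk1b at 1.56, 0.898 and 4.99 CPM against 0.0468 to 0.180 CPM (median 0.140), and Msln (mesothelin) changed by 4.28 ± 0.73, a call lost with the block (adjusted p = 0.0504). Krt19, a keratin of both mesothelium and bile ducts, changed by 2.10 ± 0.33, a call lost with the block (adjusted p = 0.0512). Of 20 cholangiocyte, progenitor and fetal liver genes 3 rose. The part of the capsule in each sample was not measured.

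Hepatocyte functions showed smaller shifts, whose count depends on the scaling. Of 58 genes of cytochrome P450 families 1 to 4 and their reductases, 3 passed upward and 1 downward, of 53 phase II conjugation enzymes 1 and 3, of 37 uptake and efflux transporters 2 and 3, and of 33 pericentral genes 1 and 3. The downward counts depended on single livers: that of conjugation enzymes was 1 without hepatectomised liver 2 and 0 without hepatectomised liver 1, that of transporters 1 without control 3 or 5 and 0 without control 1, 2 or 6 or hepatectomised liver 1 or 2 and that of pericentral genes 5 without control 4 and 1 without control 6 or hepatectomised liver 1. The upward count of P450 genes was 1 with the block, 1 without control 1 and 0 without hepatectomised liver 2 or 3. Scaled by library size alone, 11 P450, 17 conjugation, 9 transporter and 8 pericentral genes were lower. As shares of all counts, P450 genes took 3.18 to 3.85% in controls and 1.63, 2.28 and 2.7% in the remnants, conjugation enzymes 1.46 to 2.30% and 1.21, 1.32 and 1.10%, and transporters 0.869 to 1.13% and 0.517, 0.62 and 0.752%. All 3 shares were lower in each remnant than in any control, beside the larger share that acute-phase genes took. Shares of NRF2 target, vitamin A and clock genes were also below every control. By mean log2 CPM relative to the control mean, P450 genes (-1.16, -0.63 and 0.56, controls -0.86 to 0.72) overlapped the controls. Transporters (-0.38, -0.17 and 0.17, controls -0.18 to 0.19) overlapped too. Conjugation enzymes (-0.27, -0.18 and -0.27, controls -0.15 to 0.27) did not.

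Cyp7a1, the rate-limiting enzyme of bile acid synthesis, was at 51, 49.9 and 30.8 CPM against 117 to 343 CPM (median 144). Each remnant was below each control, and the change was -2.03 ± 0.52 (adjusted p = 0.0331), but the call was lost with the block (adjusted p = 0.0621) and without control 6 or hepatectomised liver 1, 2 or 3 (adjusted p 0.0653 to 0.129). Cyp2e1, an ethanol-oxidising pericentral enzyme, did not pass (log2 difference -0.58 ± 0.25, adjusted p = 0.177), nor did Cyp3a11, a drug-metabolising enzyme (0.05 ± 0.40, adjusted p = 0.955), nor the pericentral glutamine synthetase gene Glul (-0.17 ± 0.36, adjusted p = 0.825). Of 23 bile acid synthesis and sensing genes 2 fell, and of 32 periportal genes 3 rose and 1 fell. Without hepatectomised liver 3 or control 4, 5 P450 genes were lower. Slc38a2, an importer of small neutral amino acids, rose by 1.47 ± 0.22. Nnmt, which methylates nicotinamide, changed by 3.28 ± 0.55, a call lost with the block (adjusted p = 0.0504).

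Single genes of energy metabolism changed within lists that mostly did not. Ldha, which interconverts pyruvate and lactate, was at 1420.3, 1879 and 1237 CPM against 293 to 581 CPM (median 408) and rose by 1.75 ± 0.24 (adjusted p = 0.00154), with no overlap between groups. Pfkfb1, the liver enzyme that sets fructose 2,6-bisphosphate, rose by 1.39 ± 0.24, while Ugp2, which makes UDP-glucose for glycogen, changed by -1.09 ± 0.22, a call lost without hepatectomised liver 2 (adjusted p = 0.0674). Of 36 glycolysis and pentose phosphate genes 3 rose and 3 fell, and of 25 gluconeogenesis and glycogen genes 2 and 2. Pck1, the gluconeogenic PEP carboxykinase, changed by 0.88 ± 0.25, a call lost with the block (adjusted p = 0.122) and without control 2, 3, 5 or 6 or hepatectomised liver 1, 2 or 3 (adjusted p 0.0568 to 0.307). Without hepatectomised liver 3 the change of Pck1 was 0.50. 

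Apoa4, an apolipoprotein of triglyceride-rich particles, was at 767, 1987 and 488 CPM against 82.1 to 209.9 CPM (median 111) and rose by 3.12 ± 0.41 (adjusted p = 0.00135). Angptl4, which inhibits lipoprotein lipase, rose by 1.57 ± 0.24. Of 31 apolipoprotein and lipoprotein genes 5 rose (3 with the block and 3 without control 1, 2 or 5 or hepatectomised liver 1) and 1 fell. Of 24 lipid droplet genes 5 rose (1 with the block and 3 without hepatectomised liver 2 or 3), among them Plin4 and Plin5, droplet coat proteins that changed by 3.98 ± 0.72 and 2.23 ± 0.38, calls lost with the block (adjusted p = 0.112 and 0.0627). Without hepatectomised liver 3 their changes were 1.95 and 1.47. Of 39 fatty acid oxidation genes 3 rose (1 with the block, 1 without control 1, 5 or 6 and 0 without control 2 or hepatectomised liver 2). Of 28 fatty acid synthesis genes 1 rose and 2 fell, and with the block 0 rose and 0 fell. Fasn, fatty acid synthase, had a log2 difference of -0.77 ± 0.42 (adjusted p = 0.291). None of 26 cholesterol synthesis genes passed (4 at an unadjusted p under 0.05, 3 by DESeq2 and 0 by limma-voom). Their mean log2 CPM relative to controls was 0.56, 0.13 and -1.20, so that hepatectomised livers 1 and 3 lay on opposite sides of the control mean. 

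Of 55 urea cycle and amino acid catabolism genes 1 rose and 1 fell, 8 had every remnant below every control, and Cps1, the entry enzyme of the urea cycle, had a log2 difference of -0.28 ± 0.28 (adjusted p = 0.586). Of 26 genes of serine, folate, polyamine and methyl group metabolism 2 rose and 1 fell. Psph, the last enzyme of serine synthesis, rose by 1.17 ± 0.25, a call lost without hepatectomised liver 1 (adjusted p = 0.0533). None of 67 nuclear oxidative phosphorylation genes and 13 mitochondrially encoded subunits passed (6 at an unadjusted p under 0.05, 1 by DESeq2 and 1 by limma-voom for the first, and 0 at an unadjusted p under 0.05, 0 by DESeq2 and 0 by limma-voom for the second). Scaled by library size alone, 8 of the nuclear genes were lower, and their share was 1.00 to 1.33% of counts in controls and 0.941, 0.984 and 0.900% in the remnants, without overlap. None of 38 mitochondrial ribosome and import genes passed (1 at an unadjusted p under 0.05, 0 by DESeq2 and 0 by limma-voom). Bco1, which cleaves beta-carotene to retinal, rose by 1.46 ± 0.18 (adjusted p = 0.000753), 1 of 28 genes of vitamin A metabolism to do so, and the retinol dehydrogenase gene Rdh16 changed by -1.01 ± 0.25, a call lost without control 2 or 5 or hepatectomised liver 1, 2 or 3 (adjusted p 0.0505 to 0.1).

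In the growth hormone and IGF axis, Igfbp1, an IGF-binding protein secreted by the liver, was at 531, 639 and 835 CPM against 6.36 to 58.0 CPM (median 22.8). The groups did not overlap and the change was 4.57 ± 0.84 (adjusted p = 0.00812), though the call was lost with the block (adjusted p = 0.089). Igf1 had a log2 difference of -0.19 ± 0.14 (adjusted p = 0.432). Of 28 sex-biased liver genes and 20 major urinary protein genes, none passed in a model that held sex (3 at an unadjusted p under 0.05, 1 by DESeq2 and 2 by limma-voom for the first, and 2 at an unadjusted p under 0.05, 1 by DESeq2 and 3 by limma-voom for the second). Of the 20 urinary protein genes, 19 had a negative difference (median -2.0). The list took 2.18, 1.96 and 4.01% of counts in male controls and 0.340 and 0.843% in the male remnants. In female controls it took 0.182, 0.514 and 0.327%, and 0.171% in the female remnant. Each remnant was below each control of its sex. The sex-biased list (median -0.77) took 1.37, 1.28 and 2.28% in male controls and 0.309 and 0.691% in the male remnants, against 0.397, 0.493 and 0.389% and 0.289% in females, again lower within each sex. A sum weighs abundant genes most. By mean log2 CPM relative to the control mean the sex-biased list stood at -0.93, -0.94 and -0.55 in male controls and -1.63 and -0.73 in the male remnants, so that hepatectomised liver 2 lay among the controls, and at 0.64, 1.23 and 0.53 and 0.49 in females. Reads of the near-identical urinary protein genes may be shared between copies.

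Few genes of protein synthesis passed the test, and the upward counts of translation and secretory pathway genes depend on the scaling. Of 78 cytosolic ribosomal protein genes 1 passed upward although 77 had a positive change (median 0.28) and 23 an unadjusted p under 0.05, and 7 passed without control 6. Of 28 endoplasmic reticulum chaperone and unfolded protein response genes none passed (11 at an unadjusted p under 0.05, 3 by DESeq2 and 0 by limma-voom; median 0.45), and 8 rose without control 4. Hspa5, the chaperone BiP, was at 1209, 876 and 577 CPM against 299 to 1143 CPM (median 488), the highest control being control 4. Of 40 secretory pathway genes 3 rose (12 without control 4, 7 without hepatectomised liver 3, 5 without control 6, 1 without hepatectomised liver 1 and 0 without control 1 or 2 or hepatectomised liver 2). A positive change was seen in 38 of the 40, and 21 had an unadjusted p under 0.05. The list's mean log2 CPM relative to the control mean was 0.52, 0.60 and 0.01 (controls -0.25 to 0.25), so that only hepatectomised liver 3 lay among the controls. Of 25 integrated stress response genes 6 rose (3 without hepatectomised liver 1, 4 with the block and 4 with library size alone). By mean log2 CPM relative to the control mean this list stood at 0.82, 0.84 and 0.59, above every control (-0.31 to 0.43). Its share of counts overlapped, at 0.213, 0.187 and 0.220% against 0.187 to 0.269% in controls. Of 53 ribosome biogenesis genes 1 rose and 1 fell, and of 40 translation genes 5 rose (1 with the block, 3 without control 3, 5 or 6 or hepatectomised liver 1 or 3, 2 without control 2 and 1 without hepatectomised liver 2). Scaled by library size alone, 0 translation genes were higher and 2 lower, and 0 secretory pathway genes were higher. The translation list took 0.889 to 1.01% of counts in controls and 0.904, 0.831 and 0.822% in the remnants. None of 33 proteasome genes passed (1 at an unadjusted p under 0.05, 0 by DESeq2 and 0 by limma-voom) and none of 32 spliceosome genes (4 at an unadjusted p under 0.05, 0 by DESeq2 and 0 by limma-voom).

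Cytoskeletal genes rose in part: 10 of 38 rose and none fell (median 0.68), with upward counts of 6 without control 1 and 5 without hepatectomised liver 2. Tubb6, a beta-tubulin, rose by 3.14 ± 0.45, S100a6 and S100a11, calcium-binding proteins, by 2.40 ± 0.35 and 1.80 ± 0.30, Anxa2, a membrane-binding annexin, by 1.35 ± 0.27, and Lmna, the gene of nuclear lamins A and C, by 1.00 ± 0.17. Tubb6 stood at 39.5, 64.7 and 30.4 CPM against 2.31 to 11.6 CPM (median 4.98), with each remnant above each control. Of 26 cytosolic chaperone genes 2 rose (1 with the block, 5 without control 4 and 1 without control 1, 2, 3 or 6 or hepatectomised liver 2 or 3), including the small heat shock gene Hspb8, by 1.18 ± 0.19.

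Cell death genes moved in both directions: of 35, 3 rose and 4 fell (downward 2 with the block, 2 without control 1, 2 or 6 or hepatectomised liver 3 and 1 without hepatectomised liver 2). The death receptor gene Fas rose by 1.36 ± 0.23, and Bmf, a proapoptotic BH3-only protein, fell by 1.87. The survival gene Bcl2l1 (BCL-XL) changed by 1.38 ± 0.23, a call lost with the block (adjusted p = 0.0525), and by 0.79 without hepatectomised liver 3. Of 34 autophagy and lysosome genes 2 rose, among them Map1lc3b, the autophagosome marker LC3B, by 0.85 ± 0.13. Of 23 clock genes 1 rose, of 27 NRF2 target and redox genes 1 rose and 2 fell, of 21 hypoxia-induced genes 2 and 1.

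The gene lists do not cover the response. Of the 1164 genes called, 361 were on at least 1 list and 803 on none. The largest falls included several of the latter. Sucnr1, a receptor for succinate, was at 5.06, 4.60 and 4.94 CPM after hepatectomy and at 27.1 to 38.2 CPM (median 33.9) in controls, and changed by -2.77 ± 0.22 (adjusted p = 2.76e-05). The 3 remnants were nearly alike and all below the lowest control. Pde4b, which degrades cyclic AMP, fell by 1.89, and Rnf152, a lysosomal ubiquitin ligase, by 1.77. Arrdc3, an arrestin-like adaptor, changed by -2.89 ± 0.69, a call lost with the block (adjusted p = 0.0614) and without hepatectomised liver 1 or 2 (adjusted p 0.0505 to 0.0832).

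Further genes on no list were chosen after their values were seen. Slpi, a secreted inhibitor of neutrophil elastase, rose by 4.16 ± 0.75. The glucocorticoid-induced gene Fkbp5 rose by 2.74 ± 0.42, at 131, 171 and 322 CPM against 15.0 to 52.2 CPM (median 32.1). Slc10a2, the sodium-dependent bile acid transporter known from the ileum and bile ducts, rose by 2.50 ± 0.47, at 33.8, 41.8 and 30.8 CPM against 2.05 to 9.53 CPM (median 5.73). Both genes had every remnant above every control. Nrg4, a ligand of ERBB4, rose by 2.04 ± 0.38. Nr2f2, the nuclear receptor COUP-TFII, fell by 1.31, and Deptor, an inhibitor of mTOR, changed by -0.93 ± 0.24, a call lost without control 1, 2 or 5 or hepatectomised liver 1 or 2 (adjusted p 0.0515 to 0.142).

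**Figure D5:**
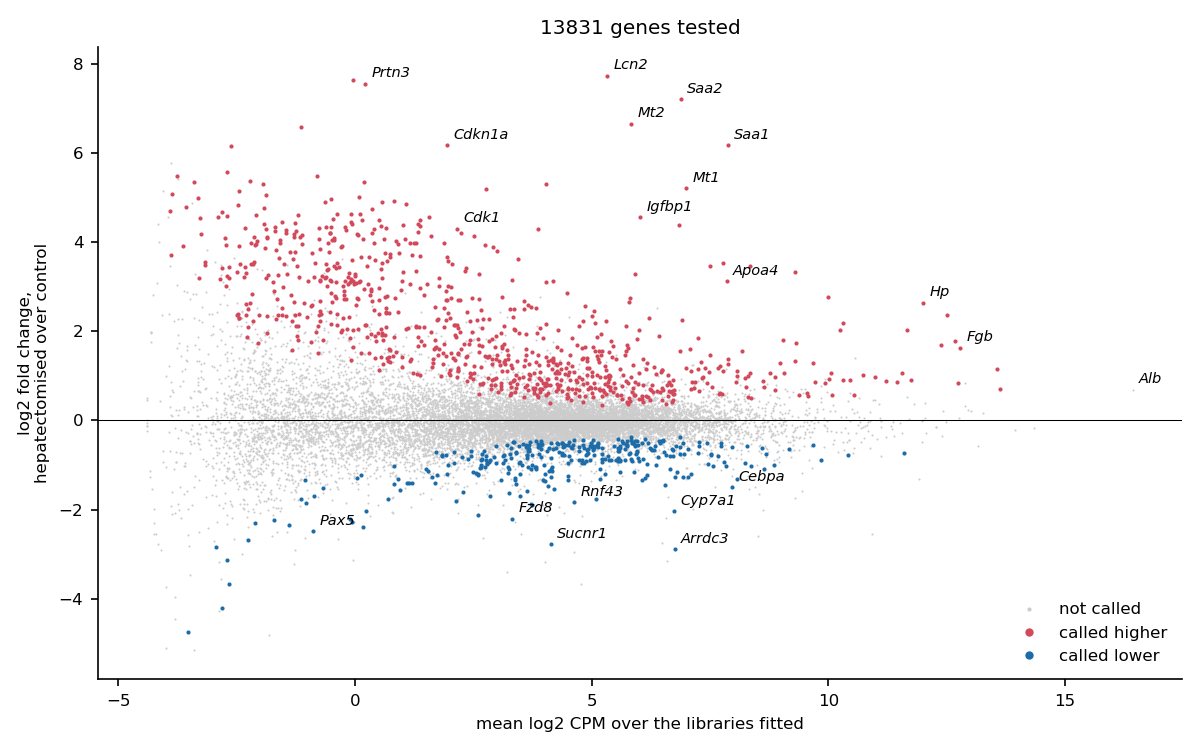
Log2 fold change of hepatectomised against control liver (y axis) over mean log2 CPM (x axis) for 13831 genes; red points are the 838 genes called higher, blue points the 326 called lower and grey points the rest. The largest rises, such as Lcn2 at 7.73, exceed the largest falls, such as Sucnr1 at −2.77.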

How the data were processed

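Whole-liver mRNA of 13 mice was sequenced, and the authors deposited a table of raw read counts per gene. Per the submitters' processing notes the tools were STAR 2.7.1a, SAMtools 1.15.1 and featureCounts 1.6.4 with build mm10. Per the labels' protocols, TRIzol RNA (500 ng) went into a stranded mRNA kit and the pool ran over 2 flowcell lanes. The strand setting and the treatment of multi-mapped reads are not given in the sources used here, so reads of near-identical copies and of overlapping or antisense genes cannot be told apart. Of the gene IDs, 21818 matched GENCODE M21, whose GRCm38 gene models gave the symbols.

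Genes were tested with the two-sided quasi-likelihood test of edgeR 4.0.16 (R 4.3.3) after filterByExpr and TMM scaling, with group and sex in a model over all 13 libraries (common biological coefficient of variation 31.4%), and the threshold was an adjusted p of 0.05 (Benjamini-Hochberg, over 13831 genes). CPM are TMM-scaled, log2 CPM used a prior count of 2, and shares are percentages of a library's counts. At the smallest and largest total, 3 counts equal 0.0848 and 0.0649 CPM before TMM scaling, which covers counting error only. The TMM factors of these libraries were 0.942 and 0.867, so the scaled values are higher. On simulated counts with 200 changed genes, the test of hepatectomised against control livers recovered 45% of 2-fold and 79% of 4-fold changes among 13831 genes, with 7 false calls among 131. With the replicate block it recovered 23% and 67%, with 2 false calls among 92. The simulated counts were independent, with no effect of sex, replicate number or single livers. They therefore cannot show how the block or the false calls behave where such effects exist.

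The model behind the calls held no term for the replicate number, and the block was used only as an alternative. The labels do not say that a number marks a shared litter, batch or day. Across genes, deviations from the group means were correlated between same-numbered control and hepatectomised livers (r = 0.23, 0.11 and 0.52 for numbers 1, 2 and 3). Same-numbered livers also share sex, and other pairs of the same sex ran from −0.11 to 0.47. Whether the livers are paired cannot be told from these values. Alternatives were other scalings, no filter, DESeq2 1.42.0, limma-voom (limma 3.58.1), other model terms and libraries left out.

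The comparison, the 80 gene lists (2224 genes) and the motifs were chosen with earlier results of these data known. Named genes are the 10 largest rises and falls that passed the test with a mean log2 CPM of at least 1 and groups that did not overlap (predicted genes left out), up to 3 called members per list and direction, and a fixed set named whether or not called. Other members, promoters and genes on no list were chosen after their values were seen. A few genes that met these rules are not reported here.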

Additional observations from a re-analysis of the deposited data

Results flagged for a closer look

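In 28 of 294 groups of control values examined (genes named and gene list means, log2 CPM), the highest or lowest control lay farther from its nearest neighbour, as a share of the range of the 6, than the 95% critical value of Dixon's ratio. Chance gives about 1 in 20, or 14.7. Control liver 6 was the extreme in 19 of the 28. It was the lowest control in the means of the lists for Kupffer cells (ratio 0.87), continuous endothelium (0.80), sinusoidal endothelium (0.78), neurotrophins (0.77), Notch (0.70), NF-kappaB signalling (0.70), dendritic cells (0.67), cell death (0.64), Hippo (0.63) and stellate cells (0.63), and the highest in the spliceosome list (0.73). Among single genes it was the lowest in Cd34 (0.86), Clec4f (0.79), Tgfb1 (0.73), Fzd4 (0.72), Osmr (0.72), Ccn2 (0.71), Stab2 (0.68) and Cps1 (0.66). Control 4 was the highest in the ductal list (0.75) and the lowest in the clock list (0.63), Cyp3a13 (0.66) and Slc38a2 (0.64). Control 2 was the highest in Acta2 (0.67) and S100a6 (0.64) and the lowest in Nfe2l2 (0.65). Control 3 was the highest in Mt1 (0.70) and control 1 in Plin4 (0.63). The 3 hepatectomised livers were too few for this check.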

How the results depend on the processing

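The number of genes called was 1164, with 838 higher and 326 lower, and 740 at least 2-fold. With the replicate block it was 632 (460 higher, 172 lower, 485 at least 2-fold), and 549 of the 1164 calls kept their direction and call. In males alone it was 535 (405 higher, 130 lower). Scaling by library size alone gave 2192 calls with 1566 lower, and DESeq2 gave 1939 with 746 lower. With 1 liver left out it ran from 483 to 1331, from 401 to 930 for higher, from 82 to 401 for lower and from 379 to 816 for at least 2-fold. The lowest counts came without hepatectomised liver 2, the highest without control 4. Other scaling by DESeq2's size factors, no filter on low counts, limma-voom, the 9 libraries alone and no term for sex kept these 4 counts within 1.5 times. The causes were not tested. The 192 named genes that were called kept their direction under each alternative in which they had a value, and 5 had none with the 9 libraries alone. Of the 192, 117 passed wherever they had a value with all 9 livers and no block, 105 passed with the block, 81 with each single liver left out and 78 in males alone. The block changed no other call of the named genes, except that Stab2 (log2 difference −0.86, adjusted p = 0.214) passed with it at 0.0489. Lists with up to 3 called members gained or lost calls with single livers left out. At this depth, changes of genes with controls near 0.0848 CPM, the level of 3 counts in the smallest library before TMM scaling, rest on few counts.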
